A study of Mus musculus with 38 samples.

Results

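The 7 genes described here code for steps of cholesterol synthesis or for its feedback control, and they were chosen by name, as Hmgcs1, Sqle, Idi1, Fdft1, Lss, Dhcr7 and Insig1. All 7 were found among the 23479 genes of the bulk table that could be read, and in both single-cell data sets. They were followed in E14 mouse embryonic stem cells (mESCs), 1 established line, while retinoic acid (RA) drove them towards an ectoderm-like or an extraembryonic endoderm (XEN)-like identity. The starting cells were kept feeder free in 2i medium with LIF (2i/L) and gave 2 bulk RNA-seq libraries. Whole cultures in N2B27 medium with 0.25 µM RA gave 1 library each at 6, 12, 24, 36, 48, 60, 72, 84 and 96 h. Cells negative for the surface protein PDGFRA were sorted by CD24 level into 4 gates at 48 h and 3 gates at 72 h, and PDGFRA-positive cells were sorted at 72 h, with 1 library a gate. After 96 h of RA, CD24+ PDGFRA- (ectoderm-like) and PDGFRA+ CD24- (XEN-like) cells were purified (2 libraries a lineage). Such sorted cells were also expanded in N2B27 with EGF and FGF2, and gave 1 library from an ectoderm-like culture at passage 5 and 1 from a XEN-like culture after 3 weeks. The bulk libraries held 1063830 to 2459483 unique molecular identifiers (UMIs, 1 for each captured mRNA molecule), and levels are given as counts for every 1000000 of these (CPM).

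Cholesterol is built from acetyl-CoA in a long pathway that cells switch on when membrane sterol runs low. Hmgcs1 makes HMG-CoA, an early intermediate of the mevalonate arm. Idi1 isomerizes the isoprenoid unit at the end of that arm. Fdft1, Sqle and Lss then form squalene, its epoxide and lanosterol, the first sterol, and Dhcr7 catalyzes the last reduction to cholesterol. SREBP transcription factors activate most of these genes, and the membrane protein Insig1 holds SREBP and its escort SCAP in the endoplasmic reticulum when sterol is plentiful. Insig1 is itself an SREBP target, so its mRNA is commonly read as part of the same program. In early embryos, cholesterol is needed for growing membranes and for the maturation of Hedgehog ligands, and endoderm lineages also handle lipid for the embryo.

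Promoter sequence is shown for 3 of the genes, because whether the 7 genes moved together is the question followed throughout and these 3 differ in their content of known regulatory letters. RefSeq start sites of the build GRCm38.p6 were matched for 5 of the 7 genes, and none was matched for Sqle and Fdft1. Each line gives the 250 bases before the start site, 5′ to 3′ on the + strand, at chr13:119690101-119690350, chr13:8885356-8885605 and chr5:28071162-28071411. Capitals mark the sterol regulatory element core TCACNCCAC and the NF-Y box CCAAT, which reads ATTGG when it lies on the other strand.
Hmgcs1: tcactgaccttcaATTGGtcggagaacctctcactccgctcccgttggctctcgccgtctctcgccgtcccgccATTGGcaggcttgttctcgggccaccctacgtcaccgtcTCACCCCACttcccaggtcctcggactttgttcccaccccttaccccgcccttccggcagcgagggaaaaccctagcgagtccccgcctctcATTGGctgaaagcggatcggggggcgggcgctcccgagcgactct
Idi1: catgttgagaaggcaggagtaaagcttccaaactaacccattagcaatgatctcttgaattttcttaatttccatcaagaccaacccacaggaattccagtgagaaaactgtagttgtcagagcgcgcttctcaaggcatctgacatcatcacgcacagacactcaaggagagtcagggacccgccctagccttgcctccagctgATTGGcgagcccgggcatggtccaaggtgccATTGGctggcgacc
Insig1: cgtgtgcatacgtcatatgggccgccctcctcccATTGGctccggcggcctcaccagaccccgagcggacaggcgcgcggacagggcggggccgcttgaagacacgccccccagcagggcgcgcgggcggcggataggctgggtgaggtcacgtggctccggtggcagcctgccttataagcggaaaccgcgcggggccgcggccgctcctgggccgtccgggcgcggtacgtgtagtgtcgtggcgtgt
Motifs were searched on both strands of windows of 300 bases, from 250 bases before to 50 bases after the start site. Hmgcs1 held 1 sterol regulatory element core, which began 137 bases before the start site, and 4 CCAAT boxes, of which the one after the start site is not printed. Idi1 held 2 CCAAT boxes. Insig1 held 1 CCAAT box, 216 bases before the start site, and 1 E-box CACGTG, 101 bases before it. The element core was in 1.24% of all 32851 promoters, the CCAAT box in 37.4% and the E-box in 7.15%. No letters of the element core were found in the windows of Idi1, Lss, Dhcr7 and Insig1, which says only that these letters are not in these windows.

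Over the time course, the 7 genes did not rise as a block. Hmgcs1, Sqle, Lss and Dhcr7 were highest at 48, 84 or 96 h. Fdft1 was highest in mESC library 1 (331 CPM), but mESC library 2 (209 CPM) was below most RA libraries. Insig1 stayed near its starting level to 60 h and was at several times that level by 96 h. With 1 library a time point there was no test here, and ratios are given with exact 95% intervals that cover counting error only. In whole cultures, fewer cells of a type and less RNA per cell cannot be told apart.

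Hmgcs1, the first enzyme of the group, was at 157 CPM in one mESC library and 102 CPM in the other. It read 159, 172, 155 and 174 CPM at 6, 12, 24 and 36 h, 302 CPM at 48 h, and 205, 246, 288 and 222 CPM at 60, 72, 84 and 96 h. All 5 libraries from 48 h onward were above all earlier ones, and the 48 h library was the highest. The 48 h level was 1.92 times that of mESC library 1 (interval 1.69 to 2.18) and 2.95 times that of mESC library 2 (2.54 to 3.43). Idi1 followed no such course, with 113 and 74.9 CPM in the mESC libraries, 157 CPM at 6 h, 107 to 121 CPM from 12 to 48 h, 91.3 CPM at 60 h and 108 to 129 CPM from 72 to 96 h.

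In the squalene branch, the 3 enzymes took different courses. Fdft1, which commits the pathway to sterols, was at 331 and 209 CPM in mESCs, 293 and 294 CPM at 6 and 12 h, 264 and 267 CPM at 24 and 36 h, 235 CPM at 48 h, 181 CPM at 60 h, and 209.8, 255 and 237 CPM at 72, 84 and 96 h. It was thus lowest at 60 h, and 8 of the 9 RA libraries lay between the 2 mESC libraries. Sqle, which epoxidizes squalene, was at 76.1 and 63.1 CPM in mESCs, between 65.8 and 81.1 CPM from 6 to 36 h, and between 84.1 and 118 CPM from 48 to 96 h. Lss, the cyclase that forms lanosterol, rested on few molecules (28 and 41 UMIs in the mESC libraries). It was at 17.9 and 12.2 CPM in mESCs, 14.2, 16.7, 22.9, 28.4 and 31.3 CPM from 6 to 48 h, 20.4 and 21.8 CPM at 60 and 72 h, and 33.2 and 41 CPM at 84 and 96 h. Its levels at 24 h and later were all above those of both mESC libraries.

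Dhcr7, the last enzyme, was at 14.9 and 11.8 CPM in mESCs, 14.2, 20.3, 28.4, 30.3 and 40.7 CPM from 6 to 48 h, and 26.4, 22.3, 26.4 and 36.4 CPM from 60 to 96 h. Its level at 48 h was 2.73 times that of mESC library 1 (1.84 to 4.16) and 3.46 times that of mESC library 2 (2.24 to 5.51). Insig1, the feedback regulator, was at 47.7 and 40.05 CPM in mESCs and at 44.5, 29.1, 41.3, 55.1, 50.8 and 46.8 CPM from 6 to 60 h, and then at 112, 164 and 279 CPM at 72, 84 and 96 h. The 96 h level was 5.95 times that at 60 h (4.69 to 7.65) and 5.85 times that of mESC library 1 (4.75 to 7.25). Insig1 spanned a 9.59-fold range over the time course, against 1.72-fold to 2.89-fold for the 6 enzymes.

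**Figure D1:**
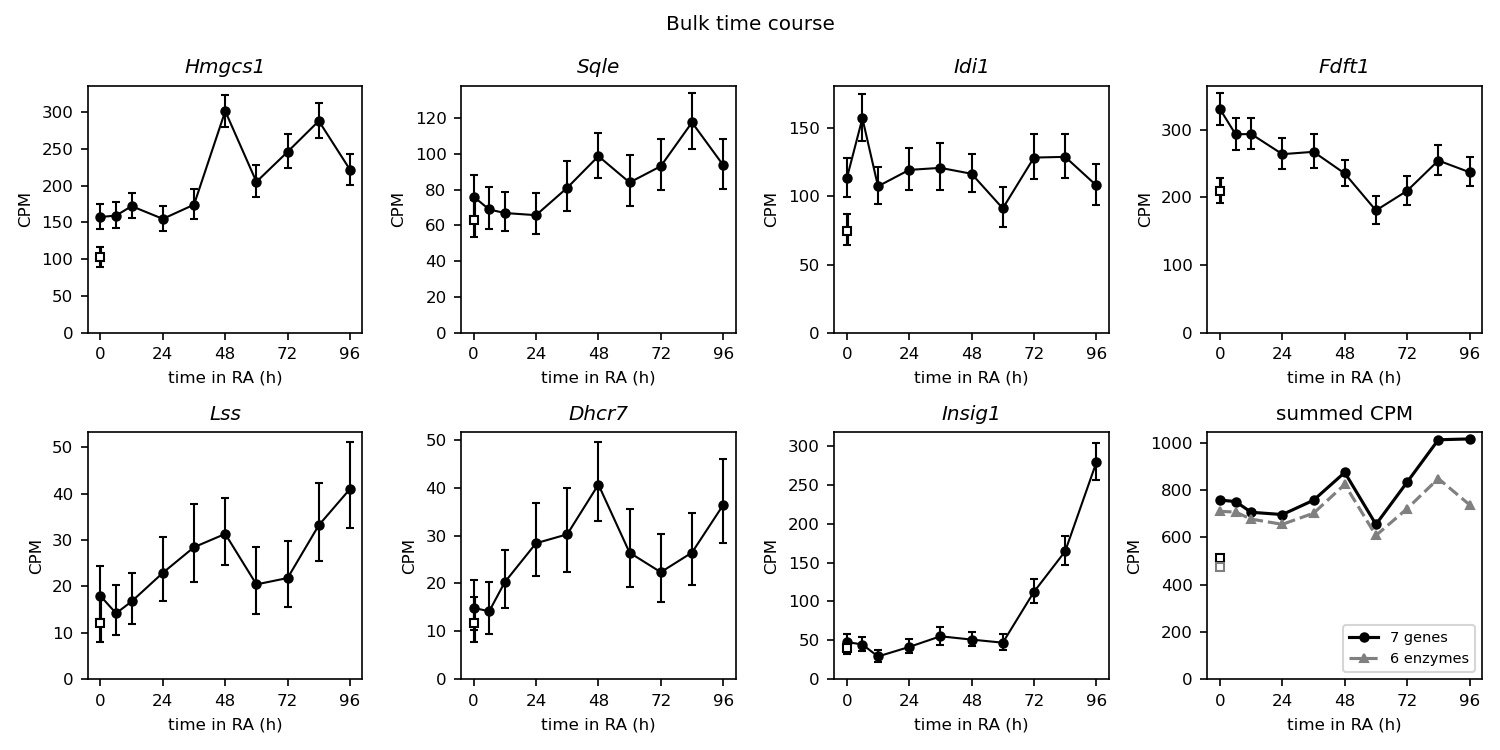
CPM (vertical axis) of each gene against time in RA (horizontal axis, h) in 1 library a time point, with exact 95% counting intervals as bars and the second mESC library as an open square; the last panel sums the 7 genes and the 6 enzymes. Hmgcs1 peaks at 302 CPM at 48 h, and Insig1 leaves its range of 29.1 to 55.1 CPM after 60 h and reaches 279 CPM at 96 h.

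Counting genes past 2-fold whose larger library held at least 50 UMIs, 1 of the 7 (Dhcr7) was higher at 48 h than in mESC library 1, against 14.1% of all genes with enough counts. At 96 h it was 3 of 7 (Lss, Dhcr7 and Insig1), against 22% of all genes. Set against mESC library 2, the same counts were 3 (18% of all genes) and 4 (23.8%), and none of the 7 was lower past 2-fold in any of these 4 comparisons, where 7.37%, 8.28%, 8.53% and 9.05% of all genes were lower. Between 60 and 96 h, Lss (2.01 times) and Insig1 were past 2-fold, against 9.24% of all genes. The 7 genes summed to 758 and 514 CPM in the mESC libraries, and to 875, 655 and 1017 CPM at 48, 60 and 96 h. The sum at 96 h was 1.34 times that of mESC library 1 (1.26 to 1.43), and without Insig1 the sum of the 6 enzymes was 1.04 times (0.968 to 1.12). The choice of starting library weighed on these values, since the 6 enzymes at 96 h were 1.56 times mESC library 2 (1.44 to 1.69).

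The 2 mESC libraries themselves differed in this pathway. All 7 genes were lower in library 2, at 0.633 times (Fdft1) to 0.840 times (Insig1) library 1, with none of the 7 past 2-fold, against 4.33% of all genes that were lower past 2-fold. The median log2 ratio was -0.60 for the 5 of these genes that reached 50 UMIs. It was -0.11 for all genes with enough counts, so lower was the more common direction among all genes too. Scaling mattered as well. With TMM factors, which align the bulk of the genes between libraries, log2 ratios of 96 h over mESC library 1 shifted by -0.34, so that Sqle moved from 0.30 to -0.04, while Insig1 stayed at 2.20, Dhcr7 at 0.95 and Lss at 0.85. At 48 h the shift was -0.31, and Idi1 (0.04 to -0.26) and Insig1 (0.09 to -0.21) changed sign. Hmgcs1 (0.63), Dhcr7 (1.14) and Lss (0.50) stayed higher, and Sqle was at 0.07.

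Changes from 0 to 48 h were compared across 3 assays. SCRB-seq counts UMIs in single cells sorted into 384-well plates, and wells with more than 2000 UMIs were kept, which left 137 to 335 cells at each of 9 time points with median depths of 3559.5 to 5069 UMIs a cell. The 384 well names were the same on every plate, so shared names carry no information on shared cells. SMART-seq2, which reads whole transcripts, gave 82, 86, 89 and 82 cells at 0, 12, 24 and 48 h in RPKM (reads scaled by gene length and depth, and here also to 1 common total a cell), and its depth per cell is not known from the values. Apart from the 2 bulk mESC libraries, each time point was 1 sample in each assay, so the 48 h levels have no replicate check.

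Hmgcs1 at 48 h was 1.92 times its 0 h level in bulk (mESC library 1), 2.84 times in SCRB-seq (2.47 to 3.27) and 2.84 times in the mean RPKM of SMART-seq2. Dhcr7 was 2.73, 3.94 and 1.68 times its 0 h level in the same order. Lss was at 1.75, 5.27 and 1.78 times, so these 3 genes were above 1.5 times in all 3 assays. With TMM factors, though, the bulk log2 ratio of Lss went from 0.80 to 0.50, which is under 1.5 times. Sqle gave 1.30, 1.43 and 1.94 times, and Idi1 gave 1.03, 1.94 and 1.58 times. Fdft1 gave 0.712, 1.14 and 1.14 times. Its median over SMART-seq2 cells went from 69.7 to 64.2 RPKM, so the direction there turned on the use of the mean. The starting library mattered in bulk, since against mESC library 2 Fdft1 was at 1.12 times (0.995 to 1.27), Idi1 at 1.56 times (1.29 to 1.89) and Sqle at 1.57 times (1.27 to 1.94). Insig1 gave 1.07 times in bulk, 2.55 times in SCRB-seq (1.83 to 3.61) and 1.54 times in SMART-seq2, so the assays differed on whether it had moved by 48 h. The median log2 ratio over all genes was 0.16, -0.11 and 0.08 in the 3 assays.

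**Figure D2:**
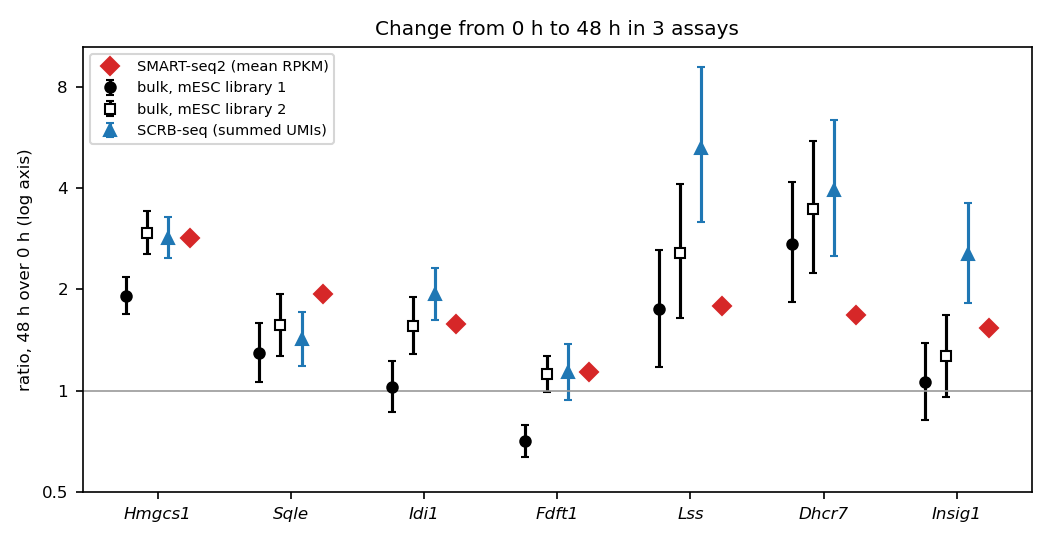
Ratio of the 48 h level to the 0 h level (vertical log axis) for each gene in bulk against either mESC library, in SCRB-seq and in SMART-seq2, with exact 95% counting intervals for UMI counts and none for RPKM. Hmgcs1 is at 1.92 to 2.95 in each, and Fdft1 lies at 0.712 to 1.14.

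In SCRB-seq the enzymes took a larger share of all UMIs from 12 h onward, and Insig1 was highest at the end. Per 10000 UMIs, the 7 genes together took 5.44 UMIs at 0 h, 6.24 at 6 h, 8.45 at 12 h, 8.53 at 24 h, 8.87 at 36 h, 11.2 at 48 h, 11.6 at 60 h, 9.04 at 72 h and 11.8 at 96 h. Hmgcs1 took 1.51, 1.75, 2.33, 2.63, 2.62, 4.30, 4.28, 2.85 and 3.38 UMIs per 10000 at the same times, with the highest values at 48 and 60 h. Idi1 took 1.09 at 0 h, 2.02 at 12 h and 2.61 at 72 h, its highest, before 1.58 at 96 h. Against 0 h, 4 of the 7 genes (Hmgcs1, Lss, Dhcr7 and Insig1) were past 2-fold higher at 48 h, where 15.3% of all genes with at least 50 UMIs were.

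Insig1 in SCRB-seq took 0.281, 0.540, 0.762, 0.392, 0.614, 0.719, 0.953, 1.31 and 2.92 UMIs per 10000 from 0 to 96 h. Its 96 h level was 10.4 times that at 0 h (7.64 to 14.3) and 4.06 times that at 48 h (3.22 to 5.14). The share of cells with at least 1 Insig1 UMI went from 11.3% to 51.8%, and from 4.96% to 35.04% once every cell was thinned to 2000 UMIs. Fdft1 went the other way, holding between 1.09 and 1.38 UMIs per 10000 from 0 to 60 h then 0.642 at 72 h and 0.550 at 96 h, which was 0.469 times the 0 h level (0.326 to 0.659). At 96 h, 3 of the 7 genes with at least 50 UMIs were past 2-fold higher than at 0 h (Hmgcs1, Lss and Insig1), against 14.5% of all genes, and Fdft1 was past 2-fold lower, against 19.6%. Dhcr7 was at 4.19 times its 0 h level at 96 h but stayed under 50 UMIs. Bulk Fdft1 showed no such late fall, at 181 CPM at 60 h and 237 CPM at 96 h. The latter lay between the mESC libraries (331 and 209 CPM), so the 2 assays differed on its late course.

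Cells of the later plates were split by whether they held more UMIs of 11 XEN markers (Sparc, Col4a1, Gata4, Gata6, Sox17 and others) or of 11 ectoderm markers (Prtg, Mdk, Pax6, Sox11 and others). At 96 h, 116 cells had more XEN and 18 more ectoderm marker UMIs, with 14 of the 137 cells within 2 UMIs of the cut (39 of 235 at 72 h and 45 of 273 at 60 h), so these are ends of a range and not cell types. Insig1 took 3.23 UMIs per 10000 (2.80 to 3.71) in the former and 0.918 (0.396 to 1.81) in the latter. At 72 h the values were 2.07 (1.40 to 2.93) in 33 cells and 1.24 (1.04 to 1.46) in 195 cells, and at 60 h they were 1.35 (0.879 to 1.97) in 36 cells and 0.910 (0.763 to 1.08) in 225 cells. The 2 intervals for Insig1 did not overlap at 96 h and did at 60 and 72 h. The 6 enzymes together took 9.15 (8.42 to 9.93) and 7.00 (5.35 to 8.99) UMIs per 10000 at 96 h, with overlapping intervals. Median depths were 3995.5 and 4826 UMIs a cell in these 2 sets of cells.

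**Figure D3:**
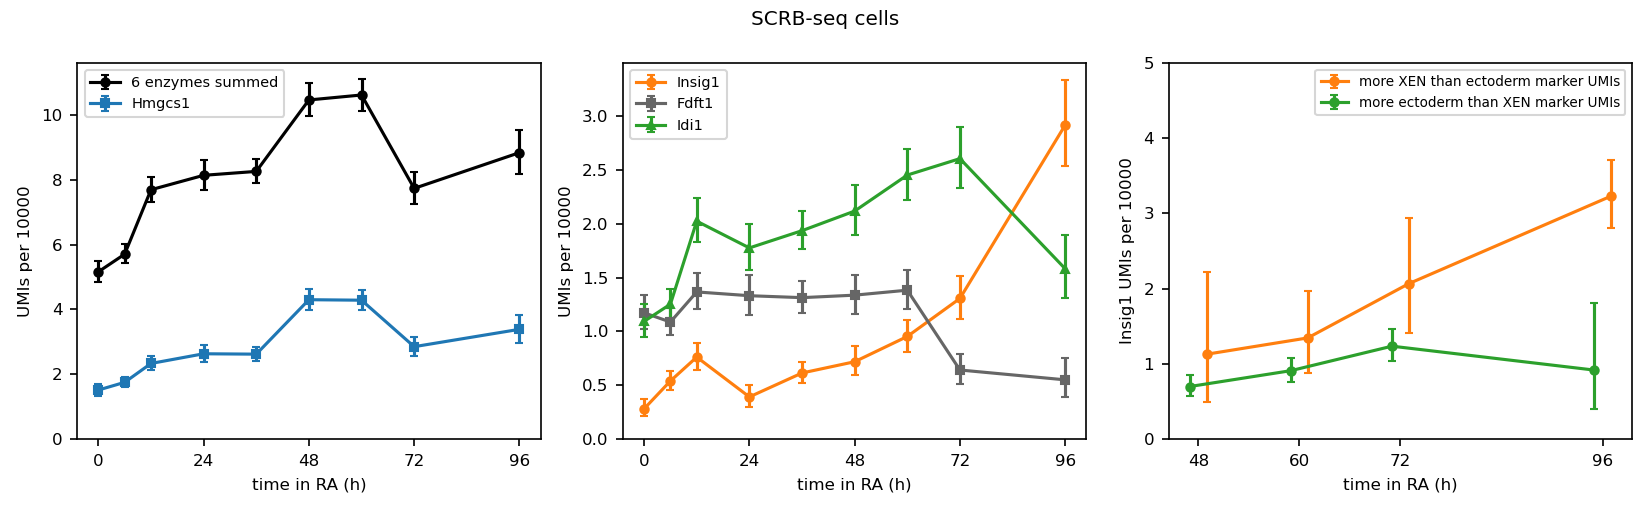
SCRB-seq UMIs per 10000 (vertical axes) against time in RA (h) for the summed enzymes and Hmgcs1, for Insig1, Fdft1 and Idi1, and for Insig1 in cells split by marker UMIs, with exact 95% Poisson intervals. Insig1 reaches 2.92 at 96 h, where Fdft1 is at 0.550, and at 96 h cells with more XEN marker UMIs hold 3.23 Insig1 UMIs per 10000 against 0.918.

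SMART-seq2 gave levels per length, and the genes are ordered here by their median over cells. The UMI assays ordered them otherwise at 0 h. Fdft1 was above Insig1 in bulk (331 and 209 CPM against 47.7 and 40.05 CPM) and in SCRB-seq (1.17 against 0.281 UMIs per 10000). The cause of this difference between assays was not tested. At 0 h the median RPKM over 82 cells was 137 for Hmgcs1, 112 for Insig1, 98.2 for Sqle, 78.4 for Idi1, 69.7 for Fdft1, 22.2 for Lss and 21 for Dhcr7. The quartiles of neighbouring genes in this order overlapped, for example 87.4 to 171 for Hmgcs1 and 59.8 to 169 for Insig1, whereas the medians of Lss and Dhcr7 lay under the lower quartiles of the other 5. At 48 h, Hmgcs1 had a median of 324 RPKM (quartiles 175 to 548), Insig1 179 (93.7 to 277), Sqle 172 (102 to 264) and Fdft1 64.2 (40.2 to 121). The sum of the 7 genes had medians of 570, 749, 730 and 1022 RPKM at 0, 12, 24 and 48 h. At 12 h the enzymes were already higher (636 against 443 RPKM at the median) while Insig1 was not (89.9 against 112 RPKM). The other assays did not share this split. In SCRB-seq at 12 h the 6 enzymes took 7.69 against 5.16 UMIs per 10000, and Insig1 was at 2.71 times its 0 h level (1.96 to 3.78). In bulk at 12 h the 6 enzymes summed to 678 CPM, between the mESC libraries (710 and 474 CPM), and Insig1 was at 29.1 CPM, below both.

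Across single cells of 1 time point in SMART-seq2, the 7 genes tended to vary in the same direction. The median Pearson r over the 21 pairs was 0.221, 0.171, 0.216 and 0.402 at 0, 12, 24 and 48 h, and the median r of the 7 genes with all genes was 0.0146, 0.0317, 0.0405 and 0.122. At 48 h, 21 of 21 pairs were positive (r 0.227 to 0.648), with Idi1 and Insig1 the highest pair. These values describe cells of 1 culture, and cells differ in depth. The r with all genes was also highest at 48 h.

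In the sorted lineages, Insig1 passed the test in XEN-like cells, and of the enzymes Fdft1 passed in ectoderm-like cells. Insig1 was at 47.7 and 40.05 CPM in mESCs, 44.5 and 87.2 CPM in sorted ectoderm-like cells and 265 and 432 CPM in sorted XEN-like cells. The XEN-like libraries were above all 4 others, and the ectoderm-like ones overlapped the mESC range at their lower end. In XEN-like cells Insig1 was 7.01-fold above mESCs (log2 fold change 2.81, SE 0.40, edgeR adjusted p = 0.000545) and 5.75-fold above ectoderm-like cells (2.52, SE 0.40, edgeR adjusted p = 0.00275). Without ectoderm-like library 2 the latter log2 fold change was 3.21 (edgeR adjusted p = 0.00559), and without ectoderm-like library 1 it was 2.09 (0.0382). Between ectoderm-like cells and mESCs the log2 fold change was 0.28 (SE 0.39, edgeR adjusted p = 0.670), and it was -0.35 without ectoderm-like library 2. The p-values come from edgeR's quasi-likelihood test over 8947 genes with 2 libraries a group. In simulated counts this test recovered 10% to 12% of 2-fold changes and 80% to 82% of 4-fold ones. A gene that did not pass may thus still have changed. The study's methods call these biological replicates, and how separate their cultures were is not given in the sources used here.

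Of the 7 genes, Insig1 alone passed the test between XEN-like cells and mESCs, where 22.8% of all genes tested passed (12.3% higher), and between XEN-like and ectoderm-like cells, where 12.7% passed (6.99% higher). The median log2 fold change of the 7 genes was 0.57 in the first comparison and 0.23 in the second, beside -0.06 for all genes in each. At an unadjusted p under 0.05 the counts were 1 and 2 of 7. Marker levels moved with these comparisons. All 11 XEN markers were higher in both XEN-like libraries than in both ectoderm-like ones, with summed levels of 6665 to 12049 CPM against 485 to 1779 CPM, and the ectoderm-like library with 1779 CPM was the one with 87.2 CPM of Insig1. Summed pluripotency markers (12 genes) were at 4524 to 6267 CPM in sorted XEN-like cells, 432 to 790.3 CPM in ectoderm-like cells and 13436 to 18353 CPM in mESCs, with Dppa3 at 0 in the XEN-like cells. The part of either in the Insig1 values was not tested.

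The enzymes differed less. Fdft1 was at 331 and 209 CPM in mESCs, 150.1 and 192 CPM in ectoderm-like cells and 246 and 262 CPM in XEN-like cells. It was the one gene of 7 that passed the test between ectoderm-like cells and mESCs, where 19.1% of all genes passed (9.3% lower), with a log2 fold change of -0.96 (SE 0.29, edgeR adjusted p = 0.0384). That call was lost without mESC library 1 (edgeR adjusted p = 0.245), without ectoderm-like library 1 (0.266) or 2 (0.0756), and with library totals in place of TMM factors (0.114). Fdft1 lies on chromosome 14 (63145150 to 63179578, - strand, GRCm38) and its 3′ end overlaps 774 bases of the cathepsin gene Ctsb on the other strand. Whether the counting used strand is not given in the sources used here, and the CPM of Ctsb and Fdft1 had an r of 0.0872 over the 25 bulk libraries.

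Hmgcs1 was at 266 and 258 CPM in sorted ectoderm-like cells and 243 and 180.5 CPM in XEN-like cells, all above the 157 and 102 CPM of mESCs. Neither change passed the test (log2 fold changes 0.71, SE 0.27, and 0.50, SE 0.27, with edgeR adjusted p = 0.0889 and 0.207). Dhcr7 was at 25 and 32.3 CPM in ectoderm-like and 24.9 and 28.3 CPM in XEN-like cells, also above both mESC libraries, with log2 fold changes of 0.80 (SE 0.35, edgeR adjusted p = 0.142) and 0.78 (SE 0.36, 0.144). With library totals, Hmgcs1 (log2 fold change 1.01, edgeR adjusted p = 0.0290) and Dhcr7 (1.10, 0.0455) passed in ectoderm-like cells and Fdft1 did not, so which enzyme passes depends on the scaling there. Sqle was at 105 and 114 CPM in ectoderm-like and 147 and 93.0 CPM in XEN-like cells, Idi1 at 143 and 176 CPM and at 101 and 141 CPM, and Lss at 19.5 and 23.3 CPM and at 31 and 25.5 CPM. For these 3 genes the log2 fold changes against mESCs lay between 0.18 and 0.70. The 2 lineages overlapped for Sqle, and lay close for Idi1 (nearest libraries 143 and 141 CPM) and Lss (23.3 and 25.5 CPM). None of the 3 passed between lineages (edgeR adjusted p = 0.661 for Sqle, 0.622 for Idi1 and 0.389 for Lss). The median log2 fold change of the 7 genes between ectoderm-like cells and mESCs was 0.34, beside 0.05 for all genes.

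**Figure D4:**
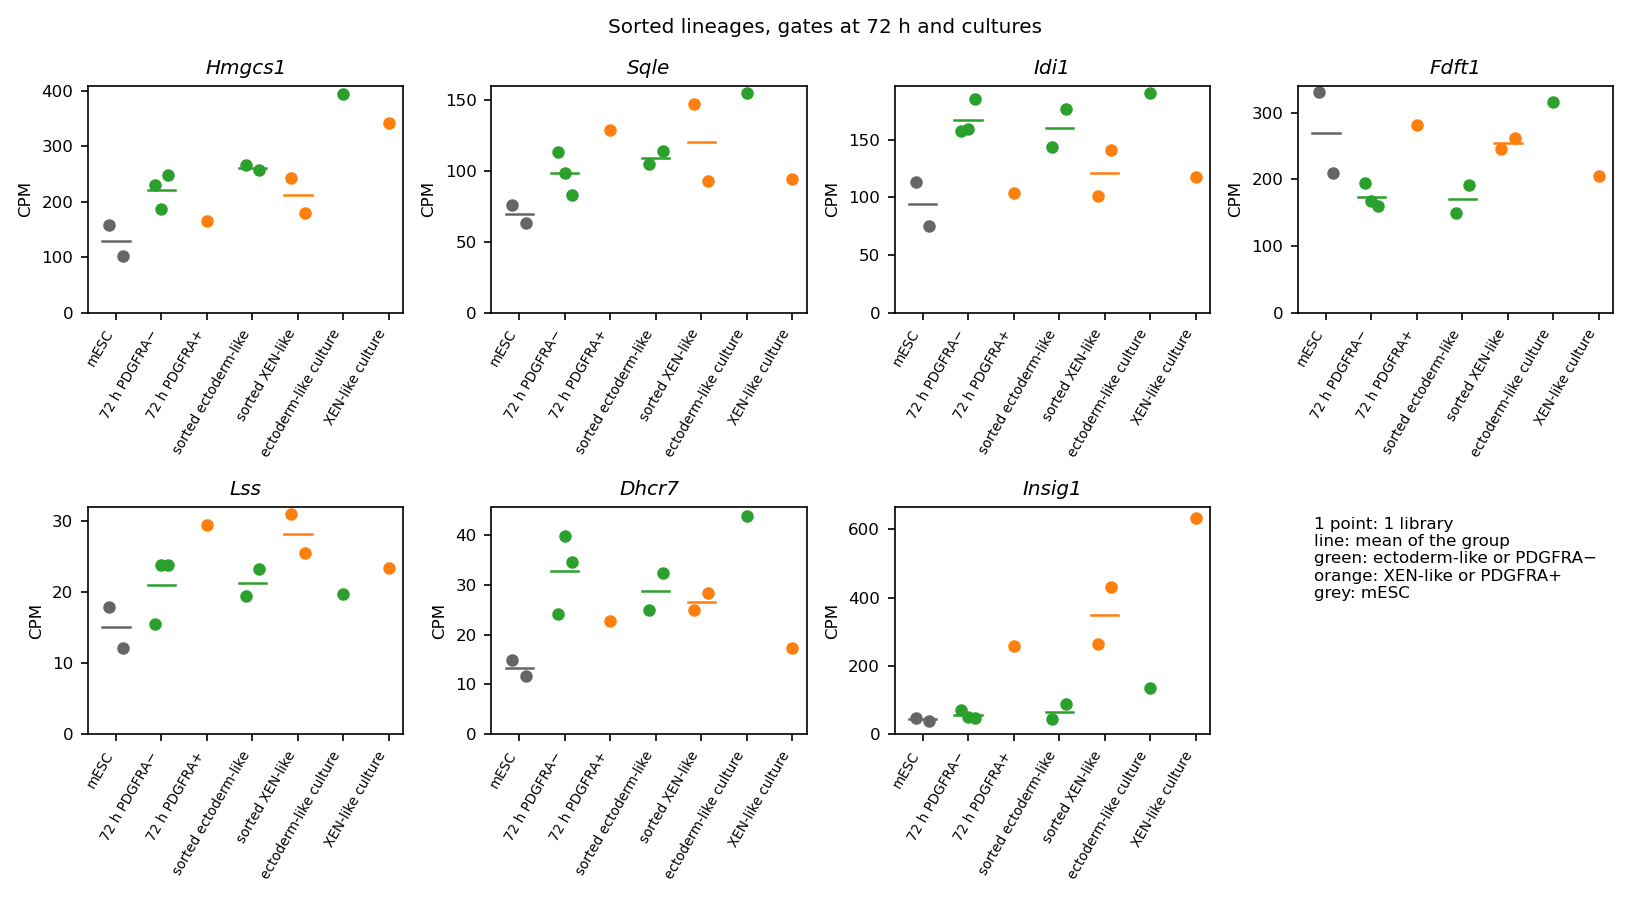
CPM (vertical axes, from 0) of each gene in mESCs, the 72 h gates, the sorted lineages and the cultures, with 1 point a library and a line at the mean of a group with more than 1 library. Insig1 is at 259 to 635 CPM in the PDGFRA-positive or XEN-like libraries (orange) and at 44.5 to 136 CPM in the PDGFRA-negative or ectoderm-like ones (green), while the enzymes overlap between the 2 colours or lie close.

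Other genes of the pathway moved in the sorted cells in the same fits. Of 16 other enzymes, 4 were higher in XEN-like cells than in mESCs and none lower, where 12.3% and 10.5% of all genes were. They included Sc5d, a late desaturase (log2 fold change 2.31, edgeR adjusted p = 0.000503), Hsd17b7, which removes a sterol keto group (1.84, 0.00596), and Cyp51, the lanosterol demethylase (1.04, 0.0379). In ectoderm-like cells 1 of 16 was higher than in mESCs, Sc5d (1.83, 0.00242), and none was lower, where 9.85% of all genes were higher. Between the lineages, Mvk, the mevalonate kinase (1.56, 0.0219), and Ebp, a sterol isomerase (1.42, 0.0105), were higher in XEN-like cells, 2 of 16, and none was lower, where 6.99% and 5.74% of all genes were. Without mESC library 2 or either XEN-like library the 4 calls against mESCs became 2, and the 2 calls between lineages became 0 without ectoderm-like library 1 and 1 without any other of these libraries. The median log2 fold change of the 16 genes was 0.51 and 0.30 against mESCs and 0.26 between lineages.

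None of the 6 regulators tested (Srebf1, Srebf2, Scap, Insig2, Mbtps1 and Mbtps2) passed edgeR's test in any of the 3 comparisons, and several rested on few UMIs. Srebf2, which codes for the main sterol-responsive SREBP, was at 2.62 and 4.79 CPM in mESCs, 5.00 and 5.17 CPM in ectoderm-like and 10.2 and 6.38 CPM in XEN-like cells (log2 fold change of XEN-like cells over mESCs 0.96, SE 0.55, edgeR adjusted p = 0.238). Insig2, the paralog of Insig1, was at 8.31 and 2.18 CPM, 10.0 and 7.75 CPM, and 10.2 and 16.4 CPM in the same groups (1.10, SE 0.59, edgeR adjusted p = 0.207). The mESC and ectoderm-like ranges overlapped for Insig2, and Srebf2 rested on 6 to 20 UMIs a library.

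Among 11 tested genes of other SREBP and lipid steps (1 more was too low to test), 3 were higher in XEN-like cells than in mESCs, namely Stard4, a sterol carrier (log2 fold change 1.57, edgeR adjusted p = 0.0187), Tmem97 (1.17, 0.00754) and the desaturase Fads2 (2.45, 0.0439). In ectoderm-like cells 1 was higher than in mESCs, Fads1 (1.13, 0.0435). Between lineages, Tmem97 (1.10, 0.0183) and the stearoyl-CoA desaturase Scd1 (1.32, 0.0113) were higher in XEN-like cells, and none of the 11 was lower in any of the 3 comparisons. Of all genes, 12.3%, 9.85% and 6.99% were higher and 10.5%, 9.3% and 5.74% lower in these comparisons, in the same order.

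Genes of sterol uptake, efflux and storage went both ways, with median log2 fold changes against mESCs of 0.15 (ectoderm-like) and 0.07 (XEN-like). Soat1, which esterifies cholesterol for storage, was at 7.44 and 9.58 CPM in mESCs, 47.2 and 91.7 CPM in ectoderm-like cells and 144 and 262 CPM in XEN-like cells. All 3 steps between these groups passed the test, with log2 fold changes of 2.72 (edgeR adjusted p = 0.00242) and 4.38 (0.000143) against mESCs and 1.67 (0.0235) between lineages. Lipa, the lysosomal lipase that frees cholesterol from its esters, was higher than in mESCs in both lineages (2.54, 0.0140 and 3.67, 0.00122). Apoe was lower in both (-4.37, 0.00180 and -4.42, 0.00145), but its mESC libraries stood at 86.6 and 457 CPM. Npc2 (-1.52, 0.0358) and Scarb1 (-1.34, 0.0364) were lower in ectoderm-like cells, but for Npc2 the mESC libraries (362 and 991 CPM) overlapped the ectoderm-like ones (212 and 377 CPM). Of 8 tested genes in this list (Abcg1, Nr1h3 and Mylip were too low), 2 were thus higher and 3 lower in ectoderm-like cells (9.85% and 9.3% of all genes), and 2 higher and 1 lower in XEN-like cells (12.3% and 10.5%).

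Between the lowest and the highest CD24 gate among PDGFRA-negative cells, none of the 7 genes with at least 50 UMIs was past 2-fold. Over all gates of a time the widest range was that of Lss at 48 h, from 14.7 CPM (22 UMIs) in the lowest quartile to 32.9 CPM (35 UMIs) in the next to highest. At 48 h, from the lowest to the highest CD24 quartile, Hmgcs1 was at 203, 239, 261 and 219.7 CPM, Sqle at 140.4, 152, 148 and 161 CPM, and Insig1 at 64.9, 62.1, 53.6 and 56.2 CPM. The 7 genes summed to 887 CPM in the lowest and 889 CPM in the highest quartile, a ratio of 1.00 (0.929 to 1.08), and 0 of 7 were past 2-fold, against 5.1% of all genes. Between the lowest and the highest tercile at 72 h the ratio of the sums was 0.968 (0.887 to 1.06), and again 0 of 7 were past 2-fold, against 10.1%. The largest differences among genes with at least 50 UMIs were 1.53 times for Dhcr7 at 48 h (1.04 to 2.27) and 0.662 times for Insig1 at 72 h (0.471 to 0.926). These gates each had 1 library, so there was no test.

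In PDGFRA-positive cells at 72 h, a day before the lineage sort, Insig1 was above the PDGFRA-negative cells and the enzymes went both ways. Insig1 was at 259 CPM there and at 70.7, 49.4 and 46.8 CPM in the 3 PDGFRA-negative gates, 4.63 times the pooled negative gates (3.89 to 5.52). Fdft1 was at 281 CPM against 195, 167 and 159.6 CPM, or 1.61 times (1.42 to 1.83), whereas Hmgcs1 was at 165 CPM against 231, 187 and 248.7 CPM (0.739 times, 0.635 to 0.857) and Idi1 at 104 CPM against 158, 159 and 185 CPM (0.618 times, 0.511 to 0.744). For all 7 genes the positive library lay outside the range of the negative ones. How many of all genes did so was not counted, so this does not set the 7 genes apart. Sqle (129 CPM against 82.9 to 113 CPM) and Lss (29.4 CPM against 15.5 to 23.8 CPM) were also above. Dhcr7 (22.8 CPM against 24.1 to 39.7 CPM) was also below, with counting intervals that overlapped the nearest gate (15.5 to 32.3 and 16.4 to 34.2 CPM). Of the 7 genes, 1 was past 2-fold higher and none lower, against 7.08% and 15.8% of all genes, and the sum of the 6 enzymes was 1.02 times (0.946 to 1.10). The direction between gates was that between the sorted lineages for 7 of 7 genes, beside 81.3% of 5321 genes. Dhcr7, however, was at a log2 fold change of -0.01 between lineages and changed sign in other settings, as did Idi1 without XEN-like library 1. Between the cultures the direction was that of the sorted lineages for 5 of 7 genes, beside 60.9% of 4413 genes. The PDGFRA-positive library held 4380 CPM of the 11 XEN markers, of which Pdgfra marks the gate itself, and 243 CPM of the 11 ectoderm markers, with Sox1 at 0.

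In the expanded cultures, Insig1 was at 136 CPM in the ectoderm-like and 635 CPM in the XEN-like culture, each above its sorted cells. The ratios were 2.12 times (1.76 to 2.55) and 1.95 times (1.78 to 2.14). Hmgcs1 was also above the sorted cells in both, at 395 CPM (1.504 times, 1.36 to 1.66) and 342 CPM (1.55 times, 1.38 to 1.74). Fdft1 differed, at 315 CPM in the ectoderm-like culture (1.86 times its sorted cells, 1.66 to 2.09) and 204 CPM in the XEN-like culture (0.812 times, 0.708 to 0.930). Dhcr7 likewise was at 43.9 and 17.2 CPM, or 1.55 times (1.14 to 2.10) and 0.661 times (0.404 to 1.05). In all, 1 of 7 genes (Insig1) was past 2-fold higher in the ectoderm-like culture, against 13.7% of all genes, and 0 of 7 in the XEN-like one, against 17.2%, with none past 2-fold lower in either (14.4% and 21.8% of all genes). These counts turned on single sorted libraries. Against ectoderm-like library 1 it was 2 of 7 (Insig1 at 3.06 times and Fdft1 at 2.10 times) and against library 2 it was 0 of 7 (Insig1 at 1.56 times), and against XEN-like library 1 it was 1 of 7 (Insig1 at 2.39 times) and against library 2 again 0 of 7 (1.47 times).

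Set side by side, the XEN-like culture held 4.67 times the Insig1 level of the ectoderm-like culture (4.06 to 5.38) but less of 5 of the 6 enzymes. Dhcr7 was at 0.393 times (0.240 to 0.621), Sqle at 0.609 times (0.493 to 0.748), Idi1 at 0.615 times (0.510 to 0.741), Fdft1 at 0.648 times (0.561 to 0.746) and Hmgcs1 at 0.867 times (0.772 to 0.973), and Lss at 1.18 times (0.721 to 1.94). The sum of the 7 genes was 1.14 times (1.08 to 1.21) and that of the 6 enzymes 0.714 times (0.664 to 0.767), so the direction of the sum turned on Insig1. Past 2-fold, 1 gene was higher (19.5% of all genes) and 1, Dhcr7, lower (24.9%). The ectoderm-like culture held 3760 CPM of 5 mesenchyme markers, which summed to at most 21.1 CPM in the sorted cells, and 2235 CPM of the XEN markers, with Sox1 at 0. The XEN-like culture held 10097 CPM of the XEN markers and 1552 CPM of the ectoderm markers, also with Sox1 at 0. The part of these differences in the values was not tested.

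Correlations over libraries describe how far the 7 genes moved together. They are given with no p, because the libraries share cultures, depth and a time order. Over the 25 bulk libraries, the median Pearson r of log2(CPM + 1) over the 21 pairs was 0.363 (range -0.204 to 0.622), with 15 of 21 positive, beside a median of 0.0229 for the 7 genes with all 6406 genes of at least 10 CPM on average. Without Insig1 the median was 0.416, and without Insig1 and Fdft1 it was 0.542 over 10 pairs. Dhcr7 had the highest median r with the other 6 genes (0.563) and Fdft1 the lowest (-0.100). Over the 10 libraries of the time course the median was 0.386, beside 0.133 with all genes. It went to -0.033 without Insig1, and to 0.548 without Insig1 and Fdft1 (10 pairs).

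The pairs differed widely. Hmgcs1 and Sqle had an r of 0.596 over all 25 libraries and 0.916 over the time course, and Lss and Dhcr7 had 0.593 and 0.857, so these 2 pairs moved alike in both. Idi1 and Dhcr7 had 0.602 over all libraries but -0.387 over the time course. Fdft1 had a median r of -0.399 with the others over the time course. Over the time course, r was 0.386 to 0.916 among Hmgcs1, Sqle, Lss, Dhcr7 and Insig1, and 0.429 between Idi1 and Fdft1. Set against the r of each gene with all genes, Hmgcs1 with Sqle and Lss with Dhcr7 lay at percentiles 99.3 to 99.8. The other pairs without Idi1 and Fdft1 ranged from 53.6 (Dhcr7 with Insig1, for Insig1) to 92.3 (Lss with Insig1, for Lss). An r like that of Hmgcs1 with Insig1 (0.563, percentiles 62.9 and 66.1) was thus common among all genes. Whether these pairs shared more than the time order was not tested.

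**Figure D5:**
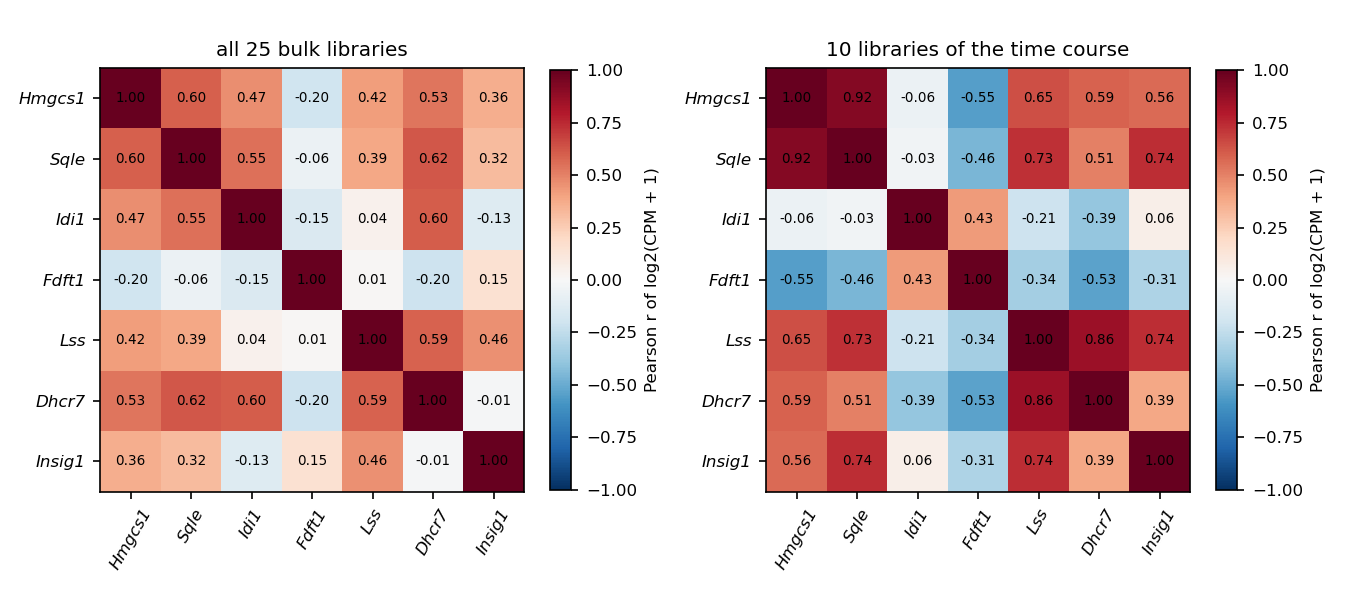
Pearson r of log2(CPM + 1) for each pair of genes over the 25 bulk libraries and over the 10 libraries of the time course (colour scale from -1 to 1, no unit). Fdft1 is at or below 0.15 with every other gene over the 25 libraries, and Hmgcs1 with Sqle reaches 0.92 over the time course.

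The 10 genes most like the mean of the 7 over the 25 bulk libraries included Xlr3c (r 0.823), Hspa13 (0.820), Tsnax (0.773), Fam46a (0.772), Arf4 (0.769), Uap1 (0.765), Ptpla (0.756), Ppp3r1 (0.746) and Ift20 (0.745), among genes of at least 10 CPM on average. Insig1 was nearest to other genes than its fellow members, with P4hb (0.948), Creb3 (0.947) and Erp44 (0.947) first, which act in the endoplasmic reticulum or, for Creb3, code for a factor anchored there. The 6 enzymes ranked 1518 to 3693 among 6405 genes by r with Insig1, and the summed XEN markers had an r of 0.904 with Insig1 and of -0.255 to 0.465 with the enzymes.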

How the data were processed

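Gene levels in bulk samples and SCRB-seq wells are deposited UMI counts, which the authors obtained with BWA 0.7.4 against mouse RefSeq mRNAs of mm10. SMART-seq2 values are RPKM that the authors made with TopHat and Cuffnorm, and they were rescaled here so that every cell had the total of a median 0 h cell. In the bulk table, 2 genes with 3 text values (Gkn2, Rn45s) were left out, and decimal-comma text in the RPKM files was read as 0. The submitters' processing notes name BWA, TopHat and Cuffnorm.

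The members and lists were chosen with earlier results of these data known. The 7 members were named in every comparison, Srebf2 and Insig2 in every tested one, and of each list up to 5 genes past the threshold with the largest change, plus the 10 genes with the highest r with the mean z-score of the members. Ctsb, the genes most like Insig1 and list members named outside tested comparisons were chosen after their values were seen. Some genes are counted in their lists but not reported here.

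Sorted cells and mESCs (2 libraries each, 6 in 1 fit) were compared by edgeR 4.0.16 quasi-likelihood tests (R 4.3.3, TMM factors, filterByExpr, Benjamini-Hochberg over 8947 genes, adjusted p under 0.05), tested on simulated data. Single libraries were compared by ratios with exact intervals at 95%, a gene counting as past 2-fold with at least 50 UMIs. Depth set the precision. DESeq2 1.42.0, other scalings, filters, folds, left-out libraries and a replicate block were the alternatives. Positions and promoters are those of GENCODE and RefSeq on GRCm38.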

Additional observations from a re-analysis of the deposited data

Results flagged for a closer look

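For 6 genes, the change from mESCs differed between the sorted lineages by edgeR's quasi-likelihood test, each with a higher level in XEN-like than in ectoderm-like cells. They were 1 of 7 members, 2 of 16 other enzymes of the pathway and 0 of 6 regulators. The rest were 2 of 11 tested SREBP and lipid genes and 1 of 8 tested genes of sterol uptake, efflux and storage. Of all genes tested, 12.7% passed in this comparison (6.99% higher). The difference in log2 fold change was 2.52 for Insig1, 1.67 for Soat1, 1.56 for Mvk, 1.42 for Ebp, 1.32 for Scd1 and 1.10 for Tmem97. The changes from mESCs themselves went opposite ways for Mvk (ectoderm-like -0.72, XEN-like 0.83), Ebp (-0.77 and 0.65) and Scd1 (-0.83 and 0.48), none of which passed the test alone. For Insig1 both XEN-like libraries were above both ectoderm-like ones.

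In 2 genes the step from sorted cells to culture went opposite ways in the 2 lineages, and this difference was not tested, since each culture had 1 library. The ratio of culture to sorted cells was 1.86 (ectoderm-like) and 0.812 (XEN-like) for Fdft1, and 1.55 and 0.661 for Dhcr7.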

How the results depend on the processing

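Insig1 stayed past the threshold in 9 of 9 alternatives in XEN-like cells, with log2 fold changes of 2.28 to 3.24 against mESCs (adjusted p up to 0.00377) and 2.00 to 3.21 against ectoderm-like cells (up to 0.0382). Fdft1 in ectoderm-like cells was called in 5 of 9. For single members, 172 of 189 other settings kept direction and call, 6 changed the call and 11 changed the sign of a log2 fold change that passed in none of the settings concerned. With 1 library left out at a time, these were Fdft1 (-0.56 to 0.031, without mESC library 1) and Idi1 (-0.21 to 0.53, without mESC library 2 and XEN-like library 2) between XEN-like cells and mESCs, Idi1 (-0.66 to 0.060, without XEN-like library 1) and Dhcr7 (-0.21 to 0.30, without XEN-like library 1 and ectoderm-like library 2) between lineages, and Insig1 (-0.35 to 0.76, without ectoderm-like library 2) and Lss (-0.044 to 0.44, without mESC library 2) between ectoderm-like cells and mESCs, the library after each range being the one that turned the sign. Dhcr7 between lineages was also 0.035 with DESeq2, 0.026 with RLE factors and 0.0084 with a replicate block, against -0.01. Leaving out 1 library at a time gave 1270 to 1663 genes called between XEN-like cells and mESCs, 885 to 1351 between ectoderm-like cells and mESCs and 269 to 670 between lineages, against 2042, 1713 and 1139 with all libraries. Members called between ectoderm-like cells and mESCs were then 0 to 1, and other pathway genes called were 2 to 3 between XEN-like cells and mESCs and 0 to 1 between lineages. DESeq2 called 709 genes and 1 pathway gene between lineages and 1095 genes between ectoderm-like cells and mESCs. Library totals gave 1 pathway gene between lineages, and 2 members and 4 pathway genes between ectoderm-like cells and mESCs. Same-numbered sorted libraries had deviations that correlated at 0.323 over 2 pairs, which does not show that the numbers pair them. A replicate block gave 3 pathway genes between ectoderm-like cells and mESCs and changed no count of members.

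The summed CPM moved with the starting library, the scaling and Insig1, here in log2 ratios. At 96 h over 0 h it was 0.42, and 0.080 with TMM factors, 0.74 as a geometric mean, 0.056 without Insig1 (added after seeing the data) and 0.99 without mESC library 1. PDGFRA-positive over negative cells went from 0.36 to 0.54 (TMM), 0.21 (relative to Gapdh) and 0.027 (without Insig1). The highest quartile over the lowest went from 0.00 to 0.15 (geometric mean) and -0.31 (Gapdh). XEN-like culture over sorted cells went from 0.39 to 0.26 (TMM), 0.0026 (geometric mean), 0.72 (Gapdh) and 0.052 (without Insig1), and was 0.30 to 0.44 with 1 sorted library left out. The ectoderm-like culture gave 1.49 (Gapdh) in place of 0.63, and 0.51 to 0.74 with 1 sorted library left out. XEN-like over ectoderm-like culture reversed from 0.19 to -0.16 (geometric mean), -0.30 (Gapdh) and -0.49 (without Insig1). The cause was not tested in any of these.

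With TMM factors the median r of members was 0.262, and the sums at 60 and 96 h were 599 and 907 CPM. In SCRB-seq, a mean over cells gave 4.96, 7.91, 7.99, 9.90, 10.6 and 10.9 per 10000 at 0, 24, 36, 48, 60 and 96 h, and wells above 4000 UMIs gave 12.0 and 12.6 at 48 and 96 h. RPKM as deposited gave a median of 670.0 at 12 h. Genes with few UMIs, above all Lss and Dhcr7, had wide counting intervals.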

Other observations

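Fatty acid genes were among those past 2-fold over the time course. At 48 h, Fasn, Scd1, Scd2 and Fads1, 4 of the 8 other SREBP and lipid genes with at least 50 UMIs, were past 2-fold higher than in mESC library 1, against 14.1% of all genes, and against mESC library 2 it was 3 of 8 (Scd1, Scd2 and Fads1), against 18%. Of the other synthesis enzymes, 2 of 13, Sc5d among them, were past 2-fold higher at 48 h than mESC library 1, and 8 of 13 than library 2. In the 72 h gates, 2 of 9 other SREBP and lipid genes, Tmem97 among them, were past 2-fold higher in PDGFRA-positive than in PDGFRA-negative cells and Acaca was lower (7.08% and 15.8% of all genes). These comparisons rest on 1 library a condition and were not tested.

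Between cultures, 5 of 14 other synthesis enzymes (Acat2, Pmvk, Fdps, Ggps1 and Nsdhl) were past 2-fold lower in the XEN-like than in the ectoderm-like culture and none was higher, against 24.9% and 19.5% of all genes. The cultures also differed in Soat1, with 266 CPM (XEN-like) and 33.2 CPM (ectoderm-like).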
